A study of Mus musculus with 18 samples.

Results

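The 10 genes described here are the cathepsins Ctso, Ctsb, Ctsc, Ctsd, Ctsk, Ctsl, Ctss and Ctsz, the asparaginyl endopeptidase legumain (Lgmn) and Npc2, in mouse hearts after myocardial infarction. They were found by gene symbol in the deposited expression tables, and all 10 were present among 18414 genes. The members were chosen by gene name with earlier results of these data known, and which measured values led to the choice is not stated. Every difference between groups given below is therefore a description of these genes and supports nothing by itself. The name of the group, cathepsins and lysosomal proteases, covers all members except Npc2, which is a cholesterol-transfer protein of the lysosome and cuts no protein.

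Cathepsins are proteases that work in the acid interior of lysosomes, where they degrade proteins delivered by endocytosis, phagocytosis and autophagy. Most of them are cysteine proteases held in check by cystatins and stefins, and several also act outside the cell, where they cut collagen and elastin. Macrophages that clear dead tissue carry large amounts of them, and cathepsins S and L also process the invariant chain during presentation of antigen on major histocompatibility complex class II molecules.

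The study sequenced messenger RNA from hearts of mice with myocardial infarction that received injections of PBS (buffer) or of nanomedicines called aNMP-2a, aNMP-2b and aNMP-2c. The 18 libraries form 6 groups of 3, and tissue was taken 1 day after the last injection. The groups aNMP-2a_D3 and PBS_D3 received aNMP-2a or PBS on day 3, with tissue on day 4. The groups aNMP-2a+2b_D7 and aNMP-2a+PBS_D7 both received aNMP-2a on day 3, then aNMP-2b or PBS on day 7, with tissue on day 8. The groups aNMP-2a+2b+2c_D14 and aNMP-2a+2b+PBS_D14 both received aNMP-2a on day 3 and aNMP-2b on day 7, then aNMP-2c or PBS on day 14, with tissue on day 15. Every mouse had an infarct, and the PBS groups of the later days had already received the earlier nanomedicines. The labels give no strain, sex or age, do not say which region of the heart was taken, and do not say that replicates came from separate animals, so p-values measure only the spread between these samples.

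Levels are in FPKM (fragments scaled to transcript length and library size), a unit per length that allows levels of different genes to be compared within a library. Sums of FPKM per library lay between 704356 and 814452, and read depth is unknown. The cardiac muscle genes Myh6 (2032 to 5548 FPKM) and Tnnt2 (5511 to 9445 FPKM) were high in every library, and the macrophage gene Cd68 ranged between 20.5 and 112 FPKM. Myl7, a gene of atrial muscle, reached at least 50 FPKM in 8 of the 18 libraries, spread over 5 of the groups and absent at that level from PBS_D3. Differences between groups are on the log2(FPKM + 0.5) scale and were tested with limma across all genes, with Benjamini-Hochberg adjustment over all genes tested and a threshold of 0.05. All 10 members passed the filter on low values (1 FPKM or more in 3 or more libraries) in each comparison.

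Promoter windows of 300 bases (250 before and 50 after a start site) were taken from RefSeq on GRCm38.p6 for all members except Ctsb. Lgmn had a pair of windows. For Ctsl and for the Lgmn window chr12:102439043-102439342 the whole window lay inside the annotated gene. These minus-strand genes begin at 64370772 and 102439728. The start site used for Ctsc also lay inside its gene. The sequences of Ctso, Ctss, Ctsd and Ctsl are shown because Ctso and Ctss gave the most regular and the widest differences described below, while Ctsd and Ctsl hold CACGTG, which is the core of the lysosomal CLEAR element and is also in Lgmn. Each is written 5′ to 3′ along the gene, with matches to CACGTG, TCACGTGA or the interferon-stimulated response element pattern (GAAA, any 2 bases, GAAA) in capitals.
Ctso promoter, plus strand, chr3:81932351-81932650: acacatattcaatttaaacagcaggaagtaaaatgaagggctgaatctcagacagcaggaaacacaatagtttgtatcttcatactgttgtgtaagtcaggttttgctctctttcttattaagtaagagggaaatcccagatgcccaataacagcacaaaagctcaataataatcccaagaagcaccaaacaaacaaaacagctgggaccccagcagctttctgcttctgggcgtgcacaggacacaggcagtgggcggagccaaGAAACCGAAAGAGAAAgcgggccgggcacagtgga
Ctss promoter, plus strand, chr3:95526536-95526835: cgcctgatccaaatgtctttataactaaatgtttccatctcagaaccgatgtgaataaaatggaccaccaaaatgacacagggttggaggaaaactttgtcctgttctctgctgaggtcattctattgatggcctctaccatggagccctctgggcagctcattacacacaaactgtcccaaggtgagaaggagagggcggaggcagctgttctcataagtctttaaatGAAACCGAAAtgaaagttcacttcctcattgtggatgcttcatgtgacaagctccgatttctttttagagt
Ctsd promoter, minus strand, chr7:142387778-142388077: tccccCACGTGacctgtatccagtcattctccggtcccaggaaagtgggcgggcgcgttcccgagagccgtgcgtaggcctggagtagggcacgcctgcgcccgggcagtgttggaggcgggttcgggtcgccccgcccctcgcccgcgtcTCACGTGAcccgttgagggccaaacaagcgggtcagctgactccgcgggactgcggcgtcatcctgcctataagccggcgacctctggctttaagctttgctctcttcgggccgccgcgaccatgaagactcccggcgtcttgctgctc
Ctsl promoter, minus strand, chr13:64370471-64370770: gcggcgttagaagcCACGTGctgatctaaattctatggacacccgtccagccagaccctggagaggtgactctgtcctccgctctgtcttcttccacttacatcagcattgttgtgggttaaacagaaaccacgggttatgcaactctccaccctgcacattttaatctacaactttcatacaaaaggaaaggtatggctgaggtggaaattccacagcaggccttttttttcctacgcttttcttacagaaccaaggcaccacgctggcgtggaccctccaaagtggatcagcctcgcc

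Both strands of all 10 windows were searched. The E-box CACGTG, the core of the element read by the lysosomal regulator TFEB, was found in windows of Ctsd, Ctsl and Lgmn. It was found in 7.15% of 32851 mouse promoter windows of the same length. For Lgmn the match was in the window inside the gene, and the window at the annotated gene start had none. The extended form TCACGTGA, which contains CACGTG, was found in Ctsd alone among the members and in 0.974% of all windows. The full palindromic CLEAR element of 10 letters was found in 0 of the 10 members' windows and in 0.326% of all windows. The interferon-stimulated response element pattern was found in Ctso and Ctss and in 3.44% of all windows. In Ctso a pair of overlapping matches lay between bases 15 and 30 after the start, and in Ctss the match lay between bases 21 and 12 before the start, written as -21 to -12. AGGAAGT, the letters read by the myeloid factor PU.1, was found in Ctsc, Ctso and Ctss and in 9.35% of all windows. TCACATGA was found in Ctss and in 0.986% of all windows. These matches describe letters in the windows and show no binding.

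The members spanned a wide range of levels. Ctsd, the aspartic protease cathepsin D, was the highest member in 15 of 18 libraries (656 to 1037 FPKM, median 832), and Ctsb, a cysteine protease that trims peptides from the end as well as cutting within chains, was the highest in the other 3 (391 to 972 FPKM, median 732). Ctsl, Ctss, Lgmn and Ctsz followed with medians of 280, 234, 161 and 132 FPKM. Ctsc and Npc2 had medians of 79.9 and 77.4 FPKM. Ctsk and Ctso were lowest, with medians of 18.2 and 14.3 FPKM. Together the 10 genes made up between 0.2% (aNMP-2a+2b+PBS_D14 replicate 2) and 0.475% (aNMP-2a+2b_D7 replicate 2) of the FPKM of a library.

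The members also differed in how far they ranged over the 18 libraries. Ctss covered an 8.35-fold range and Ctsk a 6.66-fold range, while Ctsd covered 1.58-fold and Ctso 2.02-fold. Within groups, the standard deviation of the log2 value was 0.87 for Ctsk and 0.72 for Ctss, larger than for 98.1% and 96.7% of genes. For Ctso it was 0.13, and 24.7% of genes had a smaller one, against a median of 0.19 over all genes. The standard deviations of Ctsd, Ctsl, Ctsb, Npc2, Ctsc, Ctsz and Lgmn lay between 0.20 and 0.41.

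**Figure D1:**
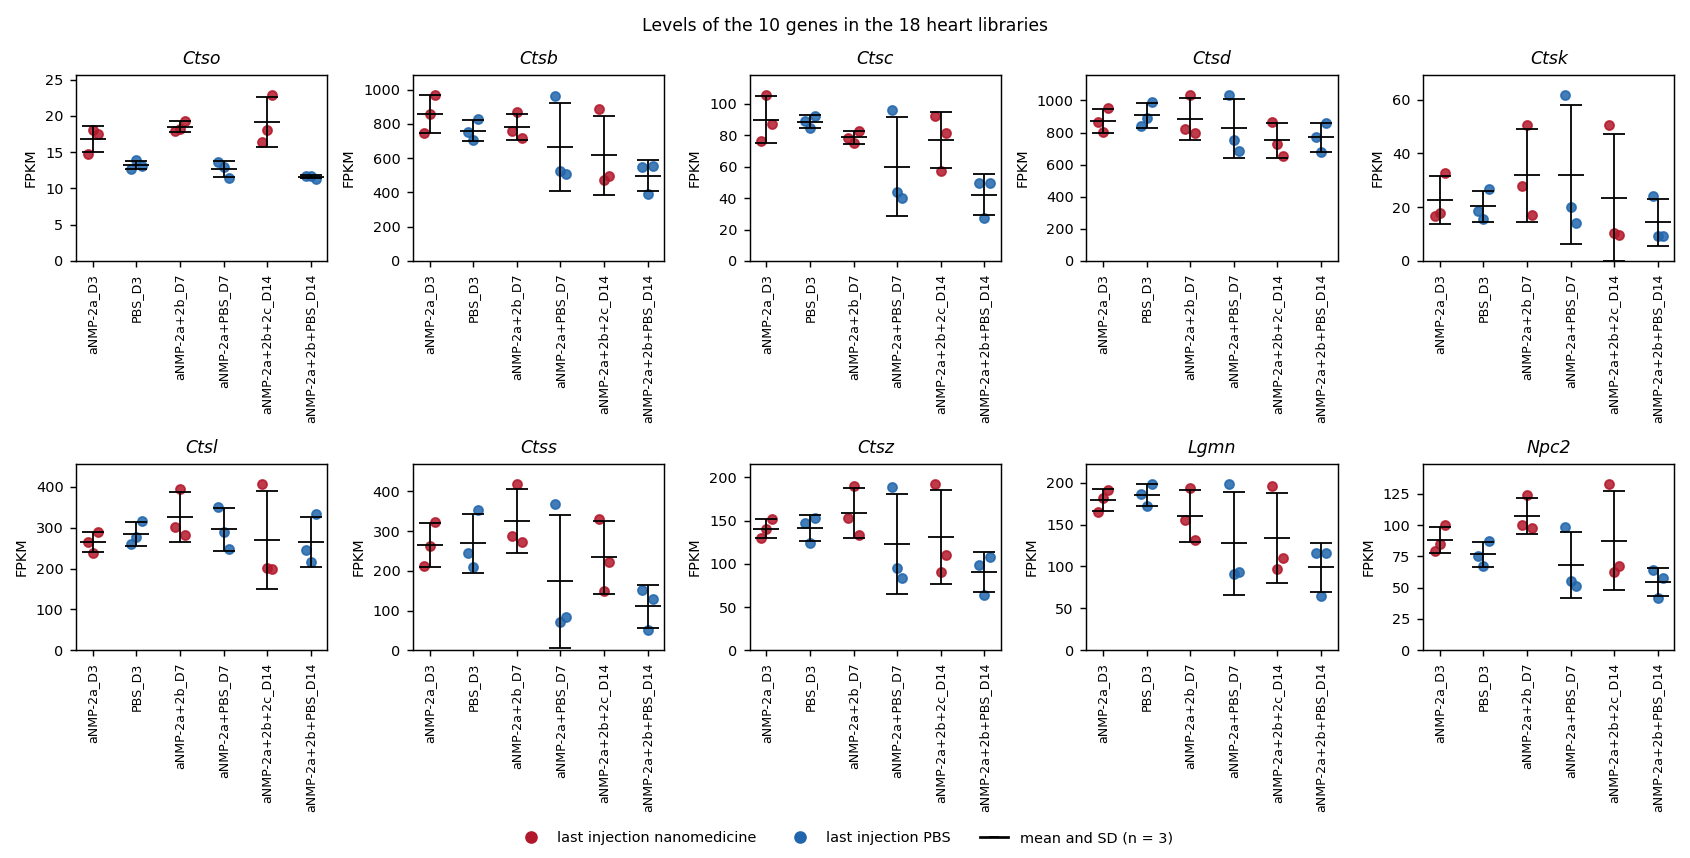
FPKM of each of the 10 genes (vertical axes, each starting at 0) in the 3 libraries of each of the 6 groups (horizontal axes), with the mean and SD in black, libraries whose last injection was a nanomedicine in red and those whose last injection was PBS in blue. Ctso lay between 14.7 and 23.0 FPKM in the red libraries and between 11.4 and 13.9 FPKM in the blue ones, whereas for most other genes 1 library of aNMP-2a+PBS_D7 and 1 of aNMP-2a+2b+2c_D14 stood above their groups.

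Ctso (cathepsin O), one of the less studied cysteine cathepsins, lies on chromosome 3 of GRCm38.p6 (81932601 to 81956725). It was the only member that separated the last injection on all 3 days. On day 4 it stood at 14.7, 18.0 and 17.6 FPKM in aNMP-2a_D3 libraries, against 12.7, 13.9 and 13.1 FPKM in PBS_D3 libraries. On day 8 it stood at 17.9, 18.3 and 19.4 FPKM in aNMP-2a+2b_D7 libraries, against 13.6, 13.0 and 11.4 FPKM in aNMP-2a+PBS_D7 libraries. On day 15 the values were 16.4, 18.1 and 23.0 FPKM in aNMP-2a+2b+2c_D14 libraries, against 11.8, 11.8 and 11.4 FPKM in aNMP-2a+2b+PBS_D14 libraries. Each nanomedicine group lay wholly above its PBS group, as it did for 14.4%, 6.78% and 9.95% of all genes tested on days 4, 8 and 15. The same holds over all days together, since the 9 libraries that ended in a nanomedicine (14.7 to 23.0 FPKM, median 18.0) lay above the 9 that ended in PBS (11.4 to 13.9 FPKM, median 12.7).

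The log2 fold change of Ctso was 0.33 (SE 0.09, adjusted p = 0.147) for aNMP-2a_D3 against PBS_D3, 0.53 (SE 0.11, adjusted p = 0.259) for aNMP-2a+2b_D7 against aNMP-2a+PBS_D7 and 0.68 (SE 0.14, adjusted p = 0.381) for aNMP-2a+2b+2c_D14 against aNMP-2a+2b+PBS_D14, all by limma. None passed the threshold, which 1.84%, 0.00787% and 0% of all genes passed in these comparisons. The effects of the 3 injections were not shown to differ, with the effect of aNMP-2c minus that of aNMP-2a at 0.35 (SE 0.16, adjusted p = 0.944). Over the alternatives tried, which left out libraries or used other scalings, filters and pseudocounts, the 3 fold changes stayed positive, with adjusted p-values no lower than 0.0521, 0.0746 and 0.115. Higher levels without overlap in all 3 comparisons were seen for 39 of 12231 genes (0.319%) and lower levels for 29 (0.237%), with no member among the lower ones. A full separation of the 9 from the 9 libraries held for 11 genes on the higher side (0.0899%) and 9 on the lower side (0.0736%). The 11 were Ankrd12, Ap3m2, Ctso, Fam76a, Itm2b, Mad2l2, Mtcp1, Pfkfb3, Rab43, Slc35a5 and Ucp2. This separation was looked for after the values of Ctso had been seen.

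Ctss (cathepsin S), a cysteine protease of macrophages, dendritic cells and B cells that stays active outside acid compartments, had the widest range of the members. Its values were 211, 262 and 322 FPKM in aNMP-2a_D3 libraries, against 245, 211 and 353 FPKM in PBS_D3 libraries. On day 8 it stood at 287, 419 and 274 FPKM in aNMP-2a+2b_D7 libraries, against 368, 72.4 and 82.7 FPKM in aNMP-2a+PBS_D7 libraries. In aNMP-2a+2b+2c_D14 on day 15 Ctss was at 329, 148 and 223 FPKM, against 153, 50.2 and 130 FPKM in aNMP-2a+2b+PBS_D14. The groups overlapped on each day, on day 8 through replicate 1 of aNMP-2a+PBS_D7 and on day 15 through replicate 2 of aNMP-2a+2b+2c_D14, which lay just below the highest PBS library. The log2 fold changes were -0.01 (SE 0.22), 1.30 (SE 0.62, adjusted p = 0.697 by limma) and 1.15 (SE 0.48, adjusted p = 0.591 by limma) for days 4, 8 and 15. Ctss lies beside Ctsk on chromosome 3, with 17398 bases between them (Ctsk 95499210 to 95509387, Ctss 95526786 to 95556405).

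Ctsl (cathepsin L) shares the invariant chain task with Ctss in the thymus and degrades matrix and autophagic cargo elsewhere. It stood at 266, 239 and 289 FPKM in aNMP-2a_D3, against 261, 277 and 316 FPKM in PBS_D3. On day 8 it was at 300.5, 395 and 282 FPKM in aNMP-2a+2b_D7, against 351, 289 and 247 FPKM in aNMP-2a+PBS_D7. On day 15 it was at 407, 201 and 198 FPKM in aNMP-2a+2b+2c_D14, against 246, 216 and 334 FPKM in aNMP-2a+2b+PBS_D14. All pairs of groups overlapped, and the fold changes on the log2 scale were -0.11, 0.14 and -0.04. The groups of each day had close means of Ctsl, for example 269 ± 120 FPKM in aNMP-2a+2b+2c_D14 and 265 ± 61.6 FPKM in aNMP-2a+2b+PBS_D14 (SD, n = 3).

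Ctsc (cathepsin C, or dipeptidyl peptidase 1) activates the serine proteases stored in granules of neutrophils, mast cells and killer lymphocytes. On day 4 it stood at 76.6, 106 and 87.3 FPKM in aNMP-2a_D3, against 89.1, 84.5 and 92.5 FPKM in PBS_D3. On day 8 the values were 78.5, 74.8 and 82.7 FPKM in aNMP-2a+2b_D7, against 96.0, 44.0 and 39.9 FPKM in aNMP-2a+PBS_D7. On day 15 they were 92.2, 57.2 and 81.3 FPKM in aNMP-2a+2b+2c_D14, against 49.8, 27.4 and 49.6 FPKM in aNMP-2a+2b+PBS_D14. Only on day 15 did the groups not overlap, and the log2 fold change was then 0.88 (SE 0.29, adjusted p = 0.476 by limma). It was 0.01 on day 4 and 0.50 on day 8.

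Ctsb (cathepsin B) was at 745, 858 and 972 FPKM in aNMP-2a_D3, against 750, 705 and 826 FPKM in PBS_D3. Ctsb stood on day 8 at 761, 868 and 719 FPKM in aNMP-2a+2b_D7, against 961, 525 and 507 FPKM in aNMP-2a+PBS_D7. Ctsb stood on day 15 at 885, 474 and 495 FPKM in aNMP-2a+2b+2c_D14, against 547, 391 and 554 FPKM in aNMP-2a+2b+PBS_D14. The groups overlapped on every day, with replicate 1 highest in aNMP-2a+PBS_D7 and in aNMP-2a+2b+2c_D14. The log2 fold changes were 0.17, 0.30 and 0.27. Ctsb overlaps the protein-coding gene Fdft1 in the annotation, and because the labels do not state strand, reads of the 2 genes may not be told apart where they overlap.

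Ctsz (cathepsin Z, or X), which removes amino acids from the carboxyl end of peptides, was again highest in replicate 1 of aNMP-2a+PBS_D7 and of aNMP-2a+2b+2c_D14 within those groups. On day 4 its libraries read 130, 140 and 152 FPKM in aNMP-2a_D3, against 147, 124 and 153 FPKM in PBS_D3. On day 8 they read 153, 190 and 134 FPKM in aNMP-2a+2b_D7, against 189, 95.6 and 83.9 FPKM in aNMP-2a+PBS_D7. On day 15 they read 193, 90.8 and 110 FPKM in aNMP-2a+2b+2c_D14, against 99.0, 63.9 and 108 FPKM in aNMP-2a+2b+PBS_D14. All of these pairs of groups overlapped. The fold changes were -0.00, 0.45 and 0.50 on the log2 scale. Ctsz overlaps the protein-coding gene Nelfcd, with the same limit on strand.

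Lgmn (legumain), which cuts after asparagine and matures other cathepsins, was at 166, 182 and 191 FPKM in aNMP-2a_D3, against 187, 172 and 198 FPKM in PBS_D3. Lgmn stood on day 8 at 156, 194 and 131 FPKM in aNMP-2a+2b_D7, against 199, 90.8 and 93.4 FPKM in aNMP-2a+PBS_D7. Lgmn stood on day 15 at 196, 96.7 and 110 FPKM in aNMP-2a+2b+2c_D14, against 117, 65.2 and 116 FPKM in aNMP-2a+2b+PBS_D14. The groups overlapped throughout, and the log2 fold changes were -0.05, 0.41 and 0.41.

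Ctsk (cathepsin K), the collagen-degrading protease of osteoclasts that activated fibroblasts also make, varied most between replicates. It was at 16.9, 18.0 and 32.8 FPKM in aNMP-2a_D3, against 18.5, 15.6 and 26.7 FPKM in PBS_D3. The day 8 libraries held Ctsk at 27.7, 50.7 and 17.0 FPKM in aNMP-2a+2b_D7, against 61.9, 20.3 and 14.3 FPKM in aNMP-2a+PBS_D7. The day 15 libraries held Ctsk at 50.7, 10.4 and 9.53 FPKM in aNMP-2a+2b+2c_D14, against 24.3, 9.30 and 9.33 FPKM in aNMP-2a+2b+PBS_D14. In each of the later groups 1 library stood well above the other 2. The log2 fold changes of 0.12, 0.13 and 0.41 had standard errors of 0.31, 0.61 and 0.71. Without replicate 1 of aNMP-2a+2b+2c_D14 the day 15 value of Ctsk was -0.36, that of Ctsl -0.39 and that of Ctsb -0.02, so for Ctsk and Ctsb this library set the sign.

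Ctsd (cathepsin D) was the steadiest of the abundant members. It was at 864, 802 and 952 FPKM in aNMP-2a_D3, against 840, 892 and 993 FPKM in PBS_D3. Ctsd stood on day 8 at 824, 1037 and 797 FPKM in aNMP-2a+2b_D7, against 1034, 755 and 688 FPKM in aNMP-2a+PBS_D7. Ctsd stood on day 15 at 868, 729 and 656 FPKM in aNMP-2a+2b+2c_D14, against 770, 682 and 860 FPKM in aNMP-2a+2b+PBS_D14. The groups overlapped on every day and the fold changes were -0.06, 0.11 and -0.04 on the log2 scale, with 95% confidence intervals of -0.29 to 0.17, -0.38 to 0.61 and -0.42 to 0.34.

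Npc2, which hands cholesterol to the membrane protein Npc1 for export from the lysosome, was at 79.3, 85.2 and 99.8 FPKM in aNMP-2a_D3, against 75.5, 67.3 and 87.3 FPKM in PBS_D3. The day 8 libraries held Npc2 at 100.5, 124 and 98.0 FPKM in aNMP-2a+2b_D7, against 98.6, 55.0 and 51.5 FPKM in aNMP-2a+PBS_D7. The day 15 libraries held Npc2 at 133, 62.2 and 67.7 FPKM in aNMP-2a+2b+2c_D14, against 64.2, 41.8 and 57.7 FPKM in aNMP-2a+2b+PBS_D14. Its groups overlapped by 1 library each on days 8 and 15. The log2 fold change was 0.20 (SE 0.12) on day 4, 0.70 (SE 0.26, adjusted p = 0.609 by limma) on day 8 and 0.61 (SE 0.32, adjusted p = 0.681 by limma) on day 15.

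Read side by side, no member passed the threshold in any of the 3 treatment comparisons. On day 4, 5 members (1 of them, Ctso, at an unadjusted p under 0.05, against 16.8% of genes) had a positive and 5 a negative value, with a median log2 fold change of 0.00 against 0.03 over all 12512 genes tested, of which 230 passed (1.84%). Ctso alone was higher without overlap, as were 14.4% of genes, and no member was lower without overlap, as were 8.5% of genes. On day 8 all 10 members had a positive value with a median of 0.43, against -0.00 over 12711 genes, of which 1 passed (0.00787%). Again Ctso alone was higher without overlap, against 6.78% of genes, and no member was lower without overlap, against 5.5% of genes. An unadjusted p under 0.05 was reached by 2 members and 7.78% of genes. On day 15, 8 members had a positive value with a median of 0.46, against 0.02 over 12440 genes, of which 0 passed (0%). Ctso and Ctsc were then higher without overlap, against 9.95% of genes, and no member was lower without overlap, against 5.43% of genes. In that comparison 1064 genes (8.55%) and 2 members had an unadjusted p under 0.05, and the lowest adjusted p of limma was 0.381. Of all genes tested, 56.7%, 49.1% and 54.8% had a positive value on days 4, 8 and 15. The 3 treatment comparisons share no library.

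Contrasts between the effects of the injections called 0 of 13116 genes and none of the members by limma, with 629 genes (4.8%, aNMP-2b effect minus aNMP-2a effect), 345 genes (2.63%, aNMP-2c effect minus aNMP-2b effect) and 642 genes (4.89%, aNMP-2c effect minus aNMP-2a effect) at an unadjusted p under 0.05. The widest of these for a member was 1.31 (SE 0.76, adjusted p = 0.988) for Ctss, for the effect of aNMP-2b minus that of aNMP-2a. Each agent was given on a different day and after different earlier injections, so these contrasts join agent, day and earlier treatment. Differences of that joint kind were not resolved at this number of libraries. Whether the members respond differently to the 3 agents themselves cannot be told from this design.

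**Figure D2:**
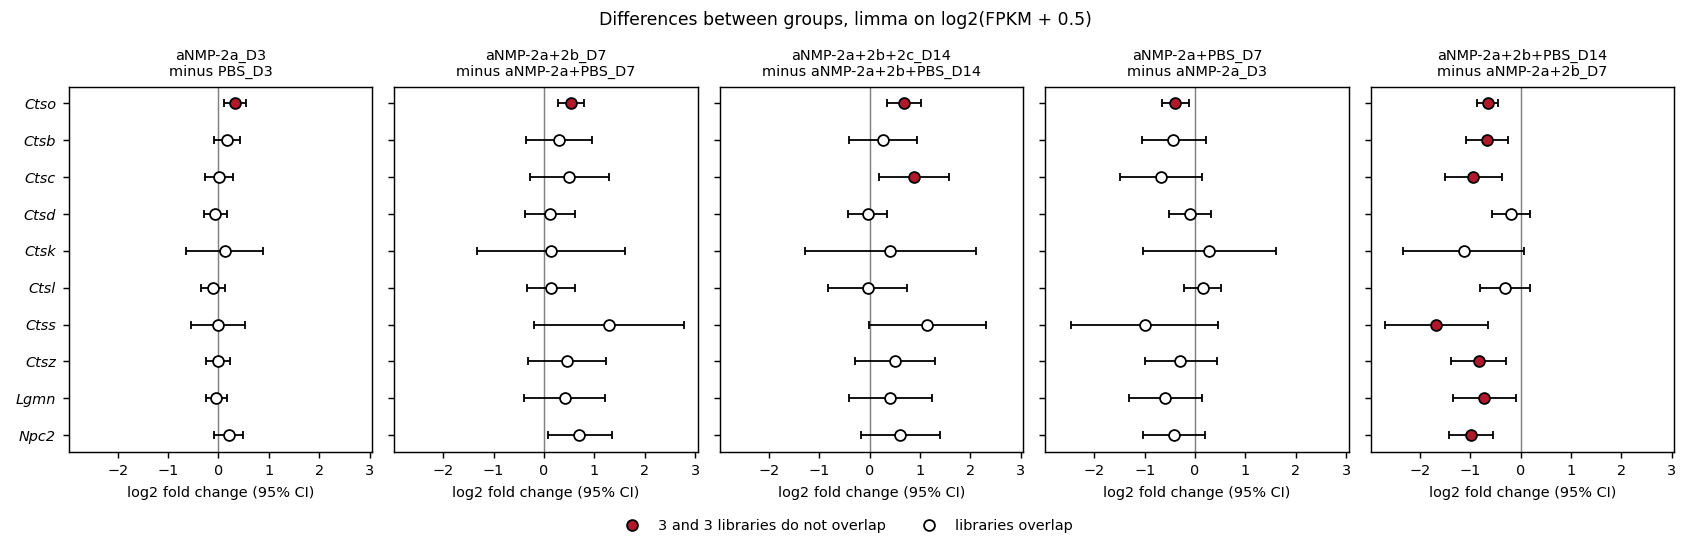
Log2 fold changes of the 10 genes (horizontal axis) with 95% confidence intervals from limma, for the 3 treatment comparisons and the 2 comparisons of days, with filled points where the 3 and 3 libraries do not overlap. Ctso is filled in all 5 panels, with narrow intervals, and on day 15 against day 8 all 10 values lie below 0, Ctss lowest at -1.68. In the 2 comparisons of days the earlier group ended in a nanomedicine and the later group in PBS.

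The day 8 comparison turned on a single library. Replicate 1 of aNMP-2a+PBS_D7 was the highest of its group for all 10 members, with a median deviation of 0.66 on the log2 scale from the group mean. This library stood out by the members' own values, so leaving it out raised their fold changes by construction. Calls made without it describe the remaining libraries and support nothing further. Without it, 3 members passed the threshold for aNMP-2a+2b_D7 against aNMP-2a+PBS_D7, all by limma. They were Ctss (log2 fold change 2.04, adjusted p = 0.0184), Ctsc (0.90, adjusted p = 0.028) and Npc2 (1.00, adjusted p = 0.037). In that setting 277 genes passed in all, where 12711 genes were tested with all libraries kept. Without replicate 2 of that group the value of Ctss was 0.87. On day 15, replicate 1 of aNMP-2a+2b+2c_D14 was the highest of its group for 9 members, with a median deviation of 0.60, and replicate 2 of aNMP-2a+2b+PBS_D14 the lowest for 9 members, with a median deviation of -0.40. Leaving out each library of day 15 in turn called no member.

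**Figure D3:**
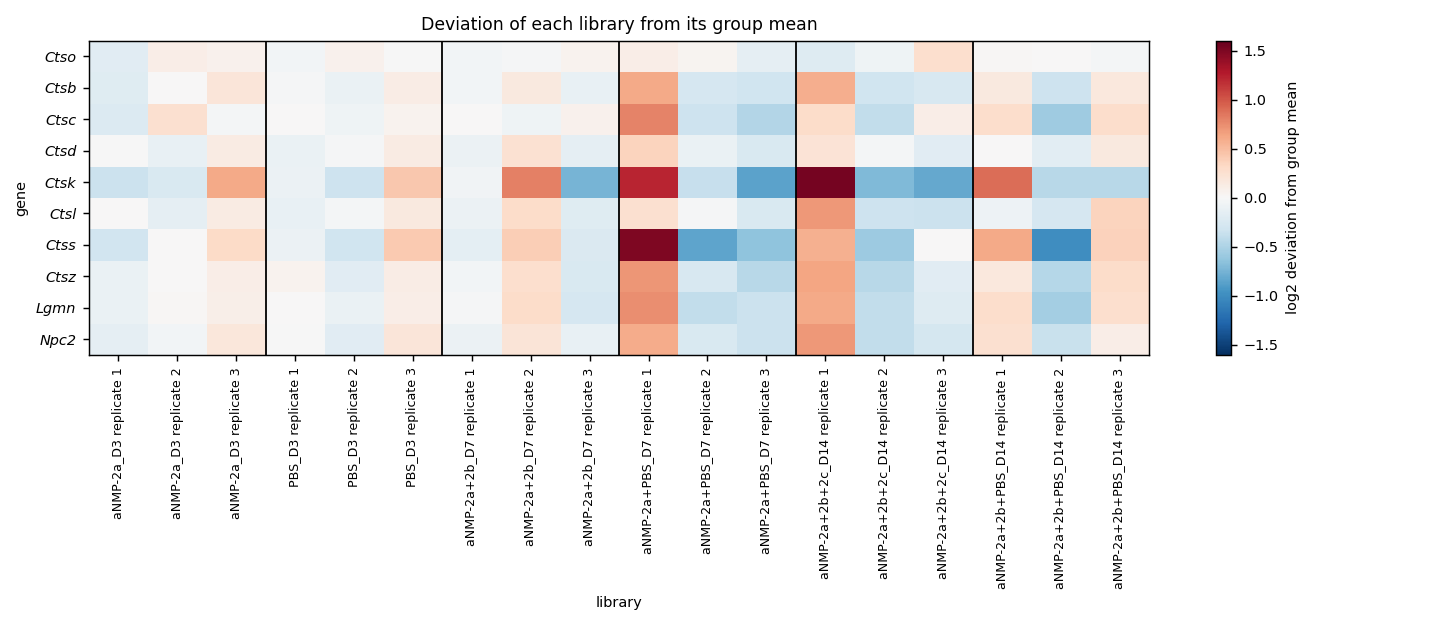
Deviation of each library (columns, 3 per group) from the mean of its group on the log2(FPKM + 0.5) scale for the 10 genes (rows), red above and blue below the mean. Replicate 1 of aNMP-2a+PBS_D7 and replicate 1 of aNMP-2a+2b+2c_D14 are red for most genes, up to 1.53 for Ctsk, while the row of Ctso stays pale.

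The time course was read between groups that had received the same nanomedicines, with 1 more PBS injection in the later group. The earlier group was sampled 1 day after a nanomedicine, the later group 1 day after PBS. Day after infarction and time since the last nanomedicine therefore cannot be told apart in these comparisons. These groups lie in different deposited tables, and each comparison shares libraries with a pair of the treatment comparisons. For aNMP-2a+PBS_D7 (day 8) against aNMP-2a_D3 (day 4), 8 members had a negative and 2 a positive value, with a median of -0.41 against -0.01 over 12585 genes, of which 5 passed (0.0397%). None of the members passed, and Ctso was the only member lower without overlap (log2 fold change -0.39, SE 0.11, adjusted p = 0.345 by limma), as were 7.32% of genes, while no member was higher without overlap, against 6.98% of genes. An unadjusted p under 0.05 was reached by 1 member and 9.42% of genes. Without replicate 1 of aNMP-2a+PBS_D7, 6 members were called lower by limma: Ctss (-1.75, adjusted p = 0.0082), Ctsc (-1.08, adjusted p = 0.0146), Lgmn (-0.96, adjusted p = 0.00666), Ctsb (-0.73, adjusted p = 0.0325), Npc2 (-0.72, adjusted p = 0.0258) and Ctsz (-0.65, adjusted p = 0.0289). In that setting 454 genes passed, where 12585 genes were tested with all libraries kept. With all libraries the same genes had values of -1.0, -0.68, -0.59, -0.43, -0.42 and -0.29 in that order. The library left out is the one left out of the day 8 treatment comparison, so both sets of calls rest on the same removal. It stood out by the members' own values, so leaving it out lowered their values here by construction.

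For aNMP-2a+2b+PBS_D14 (day 15) against aNMP-2a+2b_D7 (day 8), all 10 members had a negative value, with a median of -0.78 against -0.07 over 12607 genes, of which 2 passed (0.0159%) and 2349 (18.6%) had an unadjusted p under 0.05, as did 7 members. No member passed. Ctso, Ctsb, Ctsc, Ctss, Ctsz, Lgmn and Npc2 were lower without overlap, as were 16.9% of genes, and none was higher without overlap, against 9.11% of genes. Ctss was lowest, at 111 ± 53.9 FPKM in aNMP-2a+2b+PBS_D14 and 327 ± 80.6 FPKM in aNMP-2a+2b_D7 (SD, n = 3), a log2 fold change of -1.68 (SE 0.43, adjusted p = 0.19 by limma). Npc2 averaged 54.5 ± 11.5 FPKM in aNMP-2a+2b+PBS_D14 and 107 ± 14.3 FPKM in aNMP-2a+2b_D7 (SD, n = 3), a log2 fold change of -0.99 (SE 0.19, adjusted p = 0.178 by limma). Ctsd was among the members whose groups overlapped (-0.20, SE 0.16), with Ctsk (-1.13, SE 0.50) and Ctsl (-0.30, SE 0.21). Leaving out each library in turn called none of the members here.

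Over the 6 groups, the order of the mean levels was not the same for all members. Ctso ran, high to low, aNMP-2a+2b+2c_D14 (19.1 FPKM), aNMP-2a+2b_D7 (18.5 FPKM), aNMP-2a_D3 (16.8 FPKM), PBS_D3 (13.2 FPKM), aNMP-2a+PBS_D7 (12.7 FPKM) and aNMP-2a+2b+PBS_D14 (11.6 FPKM), and only the step between aNMP-2a_D3 and PBS_D3 separated neighbouring groups without overlap. For Ctsb, Ctsc, Ctsk, Ctss, Ctsz, Lgmn and Npc2 the group aNMP-2a+2b+PBS_D14 was also the lowest. The lowest group was aNMP-2a+2b+2c_D14 for Ctsd (751 FPKM) and aNMP-2a_D3 for Ctsl (265 FPKM). For Ctsd and Lgmn the highest group was PBS_D3, at 908 and 186 FPKM. Apart from Ctso, the only pair of neighbours in these orders that did not overlap was PBS_D3 and aNMP-2a+2b_D7 for Ctsc.

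Apart from Ctso, the members went up and down together from library to library. Over the 18 libraries, Pearson r on the log2 scale between the other 9 members had a median of 0.806 over 36 pairs (0.349 to 0.957). With the group means removed, so that only differences between replicates were left, the median was 0.855 (0.519 to 0.986). Ctso with those 9 genes had a median r of 0.283 (-0.0936 to 0.552), and of -0.091 (-0.366 to 0.293) with the group means removed. These values are descriptions, since all genes of a library share its tissue piece and its scaling.

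In bulk tissue, fewer cells of a type and less RNA per cell cannot be told apart. The sum of 12 macrophage markers (Adgre1, Cd68, Csf1r, Lyz2, C1qa, C1qb, C1qc, Mrc1, Cd14, Fcgr1, Mertk and Cd163, none at 0 in any group) varied between libraries as most members did, but not in every comparison. On day 4 the sum was higher without overlap in aNMP-2a_D3, where the members' median log2 fold change was 0.00. The sum ranged between 3305 and 3568 FPKM in aNMP-2a_D3 and between 2233 and 2930 FPKM in PBS_D3. On day 8 it ranged between 3210 and 3884 FPKM in aNMP-2a+2b_D7, and was 3827, 1652 and 1513 FPKM in replicates 1 to 3 of aNMP-2a+PBS_D7. On day 15 it was 4311, 2490 and 2878 FPKM in replicates 1 to 3 of aNMP-2a+2b+2c_D14 and ranged between 966 and 2566 FPKM in aNMP-2a+2b+PBS_D14. Of the 12 markers, 11, 12 and 12 had a positive log2 fold change on days 4, 8 and 15, with medians of 0.28, 0.74 and 0.87 and none called, against 0.03, -0.00 and 0.02 over all genes. Its part in the values of the members was not tested.

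With group means removed, r over the 18 libraries with the macrophage sum was 0.937 for Lgmn, 0.934 for Ctsz, 0.922 for Ctss, 0.911 for Ctsc, 0.887 for Ctsb and 0.854 for Npc2. Several of these members tracked other lists about as closely, also with group means removed. For the sum of 8 recruited monocyte markers r was 0.954 for Npc2, 0.94 for Ctsb and 0.931 for Lgmn. It was 0.903 for Ctss and 0.902 for Ctsz, but 0.827 for Ctsc. With a fibroblast sum r was 0.95 for Npc2 and 0.914 for Ctsb, but lower for Ctsz (0.873), Lgmn (0.87), Ctss (0.758) and Ctsc (0.63). For Ctso r with the macrophage sum was -0.00965 (Spearman rho -0.0155), and 0.596 with the group means left in. The sum of 11 fibroblast markers (Col1a1, Col1a2, Col3a1, Pdgfra, Dcn, Lum, Tcf21, Postn, Cthrc1, Thbs2 and Fap) tracked Ctsk most closely, with r at 0.973 without group means (Spearman rho 0.965, and r 0.961 without the 2 farthest libraries) and 0.918 with them. That sum was 6884 FPKM in replicate 1 of aNMP-2a+PBS_D7, against 2748 and 2299 FPKM in its other replicates, and 6901 FPKM in replicate 1 of aNMP-2a+2b+2c_D14, against 1264 and 1380 FPKM in its other replicates. Ctsk was the highest of its group in both of these libraries, at 61.9 and 50.7 FPKM. Osteoclast-type markers, the other known home of Ctsk, summed to between 9.95 and 91.8 FPKM over 8 genes, with r to Ctsk at 0.691 without group means and 0.407 without the 2 libraries farthest from the median. Calcr was at 0 in all libraries of 3 groups, and Ocstamp in those of aNMP-2a+2b+PBS_D14. Others of the list were expressed. Acp5 averaged 28.7 FPKM in aNMP-2a+2b_D7 and 20.7 FPKM in aNMP-2a+PBS_D7. Mmp9 averaged 13.5 FPKM in aNMP-2a+PBS_D7 and 2.21 FPKM in aNMP-2a_D3. Without group means, all members except Ctso ran opposite to the sum of 10 cardiomyocyte markers. There r was -0.902 for Ctsl, -0.896 for Ctsd, weakest at -0.493 for Ctsc, and 0.225 for Ctso. With group means left in, Npc2 (-0.913) and Ctsz (-0.859) were more opposed than Ctsl (-0.746) and Ctsd (-0.744).

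Markers of other cells moved as well, some up and some down, and their part in the members' values was not tested. Cardiomyocyte markers were positive in 1, 0 and 1 of 10 cases on days 4, 8 and 15 (medians -0.10, -0.48 and -0.37, none called). Endothelial markers were positive in 2, 0 and 2 of 9 cases (medians -0.22, -0.19 and -0.21), with 2 called lower on day 4. On day 8 all 11 T and NK cell markers had a positive log2 fold change (median 1.28), and Gzma, a granzyme that Ctsc activates, was the gene called by limma in that comparison, at 37.4 FPKM in aNMP-2a+2b_D7 and 5.51 FPKM in aNMP-2a+PBS_D7 (log2 fold change 2.64, adjusted p = 0.0156). Leaving out replicate 2 or 3 of either day 8 group left 0 genes called in that comparison. Of 8 markers of recruited monocytes, 2, 7 and 7 had a positive value on days 4, 8 and 15, with medians of -0.30, 0.70 and 0.62. T and NK cell markers were positive in 5 of 10 cases on day 4 and 9 of 9 on day 15 (medians -0.00 and 1.54). The T and NK cell sum had r to Ctso of 0.764, and of 0.35 with group means removed. Neutrophil markers were positive in 2 of 5, 9 of 9 and 6 of 6 cases on days 4, 8 and 15 (medians -0.04, 2.24 and 1.94). Fibroblast markers were positive in 5, 7 and 9 of 11 cases (medians -0.12, 0.12 and 0.15). Among them Dcn was called on day 4, at 1196 FPKM in aNMP-2a_D3 and 758 FPKM in PBS_D3. Its log2 fold change was 0.65 (adjusted p = 0.0396 by limma). For B cell markers the counts were 1 of 4, 6 of 6 and 1 of 4 (medians -0.42, 0.87 and -0.14, none called). Mesothelial markers, which mark the surface layer of the heart, were positive in 9, 9 and 0 of 9 cases on days 4, 8 and 15 (medians 2.35, 1.17 and -1.89, with 5, 0 and 0 called). Atrial markers were positive in 4 of 4, 6 of 6 and 2 of 6 cases (medians 4.58, 1.38 and -0.56, none called). Fat cell markers were positive in 6 of 6 cases on day 8 and 0 of 6 on day 15 (medians 2.58 and -2.12, none called), and their sum had r of 0.838 to Ctsl with group means removed. With an atrial score as covariate the value of Ctso was 0.45, 0.54 and 0.67 on days 4, 8 and 15. Omitting the libraries with Myl7 at 50 FPKM or more left 1 library each in aNMP-2a_D3 (replicate 2), aNMP-2a+2b_D7 (replicate 3) and aNMP-2a+2b+PBS_D14 (replicate 1), so each comparison then had a group of 1 library, assumed to vary like the others. The value of Ctso was then 0.43, 0.62 and 0.70, and the day 8 values of Ctss, Npc2, Ctsz and Ctsk were 0.65, 0.46, 0.08 and -0.79, which describe those few libraries.

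**Figure D4:**
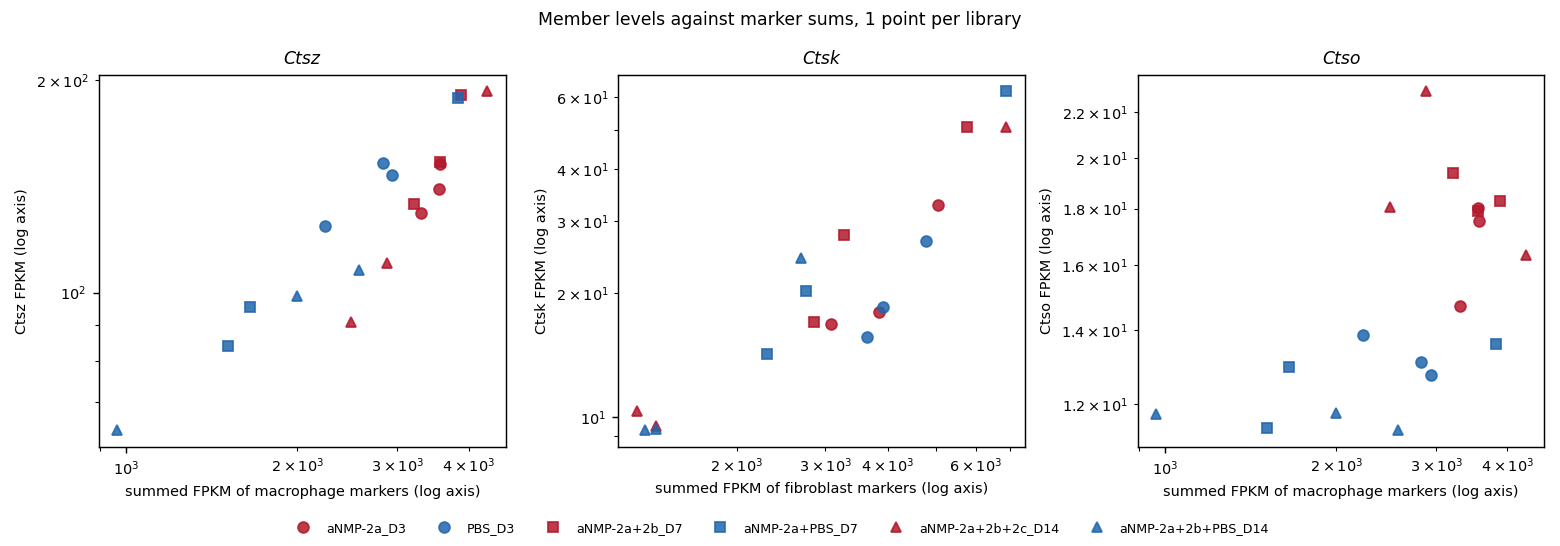
FPKM of Ctsz, Ctsk and Ctso (vertical log axes) against summed FPKM of macrophage markers (left and right panels) or fibroblast markers (middle panel) on log axes, 1 point per library, red where the last injection was a nanomedicine and blue where it was PBS, with a symbol for each day. Ctsz and Ctsk follow their marker sums over all groups, with r at 0.914 and 0.918, whereas Ctso is split by the colour of the point, all red points lying above all blue ones.

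The genes most alike to each member over the 18 libraries, by Pearson r on the log2 scale among 12470 genes, differed in kind. For Ctss they were Lpxn (0.985), Tyrobp (0.982), an adaptor of myeloid receptors, and Inpp5d (0.973), a lipid phosphatase of blood cells. For Ctsc they included the endosomal receptor Tlr13 (0.963) and the macrophage lysosomal protein Cd68 (0.955). For Lgmn they were the phagocytosis checkpoint receptor Sirpa (0.96), Plek (0.959) and Lilrb4a (0.95), and for Ctsz they were the actin nucleation subunit Arpc1b (0.976), Plek (0.975) and Mfsd1 (0.971). For Npc2 they were Tnfrsf13b (0.965), Blnk (0.965) and Plcg2 (0.958). For Ctsb they were Rap2b (0.962), the lysosomal hexosaminidase subunit Hexa (0.962) and Iqgap1 (0.959).

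For Ctsd the nearest genes were Cmip (0.908), Rspry1 (0.905) and Hexa (0.903), and for Ctsl Dnajc1 (0.956), Ppfibp1 (0.939) and Nucb1 (0.923). For Ctsk they were Samd14 (0.965), Dap (0.958) and the matricellular protein gene Ccn4 (0.956). For Ctso they were Itm2b (0.93), the ribosomal protein gene Rps4x (0.93) and Casp12 (0.911). Over the mean of the 10 members, scaled gene by gene, the nearest included Rap2b (0.972), Plek (0.971), Arl6ip1 (0.966), Tbc1d14 (0.961), Fcgr2b (0.959), Blnk (0.959), Lpxn (0.959), Capza1 (0.959) and Sat1 (0.958). Most of these neighbours depended on the setting. With group means removed, 0 of the 3 nearest genes were among the nearest again for Ctso, Ctsk, Lgmn and Npc2, 1 of 3 for Ctsb, Ctsc, Ctsl and Ctss, 2 of 3 for Ctsd and Ctsz, and 2 of 10 for the mean.

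Other genes of the lysosome gave 0 calls in the 3 treatment comparisons, from lists chosen with earlier results known. The counts of positive values below stand beside 56.7%, 49.1% and 54.8% of all genes tested on days 4, 8 and 15. Of 10 other cathepsins and lysosomal peptidases tested, 8, 9 and 8 had a positive log2 fold change on days 4, 8 and 15, with medians of 0.15, 0.28 and 0.26. Those with the smallest p were Dpp7, a dipeptidyl peptidase (0.33, adjusted p = 0.217), on day 4, and Napsa, the aspartic protease napsin A, on days 8 and 15 (1.5 and 1.33, adjusted p = 0.578 and 0.381, by limma). Napsa averaged 9.93 FPKM in aNMP-2a+2b_D7 and 3.82 FPKM in aNMP-2a+PBS_D7, and 8.86 FPKM in aNMP-2a+2b+2c_D14 and 3.25 FPKM in aNMP-2a+2b+PBS_D14. Of 31 acid hydrolases, 28, 23 and 24 had a positive value, with medians of 0.13, 0.22 and 0.29. Glb1, the lysosomal beta-galactosidase, had the smallest p on day 4 (0.30, adjusted p = 0.11 by limma) and the acid nuclease Dnase2a on day 15 (0.52, adjusted p = 0.546).

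Of 19 genes of the lysosomal membrane and its transport, 17, 15 and 14 had a positive value, with medians of 0.15, 0.16 and 0.14. Lamp2, a main protein of that membrane, averaged 134 FPKM in aNMP-2a_D3 and 105 FPKM in PBS_D3 (0.35, adjusted p = 0.15 by limma), and Laptm5, a lysosomal protein of blood cells, 91.9 FPKM in aNMP-2a+2b+2c_D14 and 48.0 FPKM in aNMP-2a+2b+PBS_D14 (0.98, adjusted p = 0.515 by limma). Subunits of the vacuolar ATPase, the proton pump that acidifies lysosomes, had medians of 0.08, 0.06 and 0.13, with 12 of 16, 11 of 17 and 12 of 16 positive. Regulators and sorting receptors had medians of 0.09, 0.03 and 0.13, with 7, 7 and 8 of 10 positive. The sorting receptor Sort1 had the smallest p on day 4 (0.47, adjusted p = 0.128 by limma).

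Of the cystatins and stefins, which inhibit cysteine cathepsins, 4, 6 and 6 genes passed the filter on low values, and 1, 4 and 5 of these had a positive log2 fold change on days 4, 8 and 15, none called. Cst7, a cystatin that enters lysosomes of immune cells, averaged 1.91 FPKM in aNMP-2a+2b_D7 and 1.03 FPKM in aNMP-2a+PBS_D7 (0.77, adjusted p = 0.698 by limma). Cstdc4 belongs to a family of near-identical stefin genes whose reads may be shared, and averaged 2.69 FPKM in aNMP-2a+2b+2c_D14 and 0.88 FPKM in aNMP-2a+2b+PBS_D14 (1.40, adjusted p = 0.564 by limma). Genes of class II presentation, the pathway that Ctss and Ctsl serve, had positive values in 3, 8 and 8 of 8 cases with medians of -0.09, 1.10 and 1.28. H2-DMb1 stood at 1.42 on day 8 (adjusted p = 0.466) and H2-DMa at 1.74 on day 15 (adjusted p = 0.385), both of which encode chains of the peptide exchange factor H2-DM, and neither was called by limma.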

How the data were processed

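Messenger RNA of mouse hearts was sequenced by the authors in 18 libraries. The deposited tables give FPKM values made by the authors, with no header naming the unit, which was inferred because length-weighted sums varied by 1.38% between libraries and plain sums by 3.81% (coefficient of variation). Tools listed in the submitters' processing notes are RSEM 1.2.8, HISAT2 2.1.0 and Bowtie2 2.2.5, with the build GRCm38.p6, and the annotation is not given in the sources used here. Without counts, depth and counting error could not be computed.

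Titles of the samples gave the groups. For each comparison the 6 libraries were fitted alone, keeping genes that reached 1 FPKM in 3 or more of them, on log2(FPKM + 0.5), in limma 3.58.1 (trended, robust) with R 4.3.3, two-sided. Contrasts between effects used 1 fit of 18 libraries. With 3 libraries a group, exact permutation p-values start at 0.1 and were not computed. The members, the gene lists and the tests were chosen with earlier results of these data known. All members are named. Genes alike are those with the highest r (3 per member, 10 for the mean, reaching 1 FPKM in 9 libraries or more), and other lists give the gene with the largest change among called genes or else the smallest p. A few genes that this rule names are not reported here. The fit was tested on simulated data. Promoters are from RefSeq (GRCm38.p6). Alternatives were other pseudocounts, filters and scalings, a replicate block, 1 fit of all libraries, an atrial score as covariate, omitting the libraries with Myl7 at 50 FPKM or more and leaving out each library. Figures were drawn with matplotlib 3.10.9.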

Additional observations from a re-analysis of the deposited data

How the results depend on the processing

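No member was called under any pseudocount, filter, scaling, replicate block, fit of all 18 libraries or atrial setting, and Ctso kept its sign in all of these. Uncalled values changed sign for Ctsc, Ctsd, Ctsk, Ctss, Ctsz and Lgmn (aNMP-2a_D3 against PBS_D3), for Ctsd, Ctsk, Ctsl and Lgmn (aNMP-2a+2b_D7 against aNMP-2a+PBS_D7) and for Ctsb, Ctsd, Ctsk and Ctsl (aNMP-2a+2b+2c_D14 against aNMP-2a+2b+PBS_D14) in at least 1 alternative. Counts of genes called moved as follows. For aNMP-2a_D3 against PBS_D3 (230), 1 fit of 18 libraries gave 3 and the atrial covariate 22, and leaving out each library gave 71 to 237 (the 3 lowest each without a PBS_D3 library). For aNMP-2a+2b_D7 against aNMP-2a+PBS_D7 (1), a 5 FPKM filter gave 4, 1 fit of 18 libraries 17 and leaving out the Myl7 libraries 0, and leaving out each library gave 0 to 277 genes and 0 to 3 members, the highest without aNMP-2a+PBS_D7 replicate 1. For aNMP-2a+PBS_D7 against aNMP-2a_D3 (5), a pseudocount of 0.1 gave 1, no filter 0, a 5 FPKM filter 13, scaling to TPM 13, 1 fit of 18 libraries 16, the atrial covariate 20 and leaving out the Myl7 libraries 0, and leaving out each library gave 0 to 454 genes and 0 to 6 members, again the highest without that library. For aNMP-2a+2b+PBS_D14 against aNMP-2a+2b_D7 (2), a pseudocount of 0.1 gave 0, no filter 0, a 5 FPKM filter 1, a fit with no trend and not robust 4 and the atrial covariate 0, and leaving out each library gave 0 to 2. Leaving out the Myl7 libraries leaves 1 library in each of those groups, so it gave no value, and leaves 1 library in a group of every other comparison, so its counts of 0 say nothing about stability. The causes were not tested.

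Samples with the same replicate number did not deviate together in every pair, with r between -0.398 and 0.37 over the 5 comparisons. For different numbers r lay between -0.547 and 0.348. The samples were treated as unpaired, and this check cannot exclude a pairing. With the replicate block, 231 genes were called for aNMP-2a_D3 against PBS_D3 and 0 in each other comparison.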
